A study of Mus musculus with 11 samples.

Results

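The genes described here encode the nuclear subunits of the mitochondrial respiratory chain, complexes I to IV with the carrier cytochrome c, and of the ATP synthase, complex V. Membership was set by gene symbol, and the symbols were chosen with earlier results of these data known. They are the Nduf subunits, Sdha to Sdhd, the Uqcr genes with Cyc1, Cycs, the Cox4 to Cox8 genes and the Atp5 genes. Of 22180 genes with a probe set of a single symbol, 81 matched these names and 80 were kept, because Uqcrh-ps1 is a pseudogene. Complex I had 33 members, complex II 4, complex III 8, complex IV 17 and complex V 17, with Cycs as the carrier between complexes III and IV. A further 8 symbols (Cox6c, Ndufb2, Ndufb4, Ndufb4b, Ndufb4c, Ndufs6, Ndufs6b and Uqcr10) are carried only by probe sets with several symbols and were not analysed here.

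The arrays measured total RNA of kidney S3 proximal tubules from 129/SvEv mice, in 6 wild-type (WT) samples and 5 samples of genotype THP -/-, which lack Tamm-Horsfall protein (uromodulin, the product of Umod). Each labelling used 2 ng of RNA, and the labels give neither age, sex nor the design of the knockout allele. Batch 1 held 5 WT and 3 knockout arrays, and batch 2 held 1 WT and 2 knockout arrays. No treatment is named. Whether the arrays come from separate animals is not given, so p-values measure only the spread between these arrays, which may be technical. Umod read 5.27 to 6.74 on the log2 scale in WT and 3.68 to 5.27 in knockout arrays, so the groups met at 5.27. Its change was -1.52 ± 0.24 (SE, limma adjusted p = 0.281), and whether its probe set lies in the deleted part is not known.

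Oxidative phosphorylation couples the transfer of electrons from NADH and succinate to oxygen with the pumping of protons across the inner mitochondrial membrane, and the ATP synthase uses the return of those protons to make ATP. Complexes I, III and IV pump protons, whereas complex II, which is also an enzyme of the citric acid cycle, does not. Proximal tubule cells are rich in mitochondria and depend on this pathway for sodium-driven transport. All complexes except complex II combine nuclear subunits with subunits encoded by the mitochondrial genome.

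No subunit gene differed between genotypes by limma after Benjamini-Hochberg adjustment over all 41345 probes. The adjusted p of the 80 members ran from 0.774 to 0.998, and 0 of 22180 genes (0%) passed 0.05, while 2546 probes (6.16%) had an unadjusted p under 0.05. At an unadjusted p under 0.05, 3 members were higher in knockout (Ndufs7, Ndufv1 and Cox6a1), against 3.64% of all genes, and 1 was lower (Cox6b2), against 2% of all genes. With 80 members these counts lie near the background shares. No member had all knockout arrays on one side of all WT arrays, against 0.433% of genes entirely above and 0.194% entirely below. The batch-adjusted log2 change was positive in 54 of 80 members (67.5%) and in 53.4% of all genes, with medians of 0.09 and 0.01.

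The 95% interval of the change lay within 1 log2 unit in both directions for 70 of the 80 members, so a doubling or halving of signal falls outside it for them. For the other 10 (Ndufa1, Ndufb9, Uqcrb, Cox5a, Cox6b1, Cox7a2, Cox7b, Atp5md, Atp5mpl and Atp5pb) the interval reached past 1 log2 unit. The widest belonged to Uqcrb, a small subunit of complex III, from -1.27 to 1.52.

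**Figure D1:**
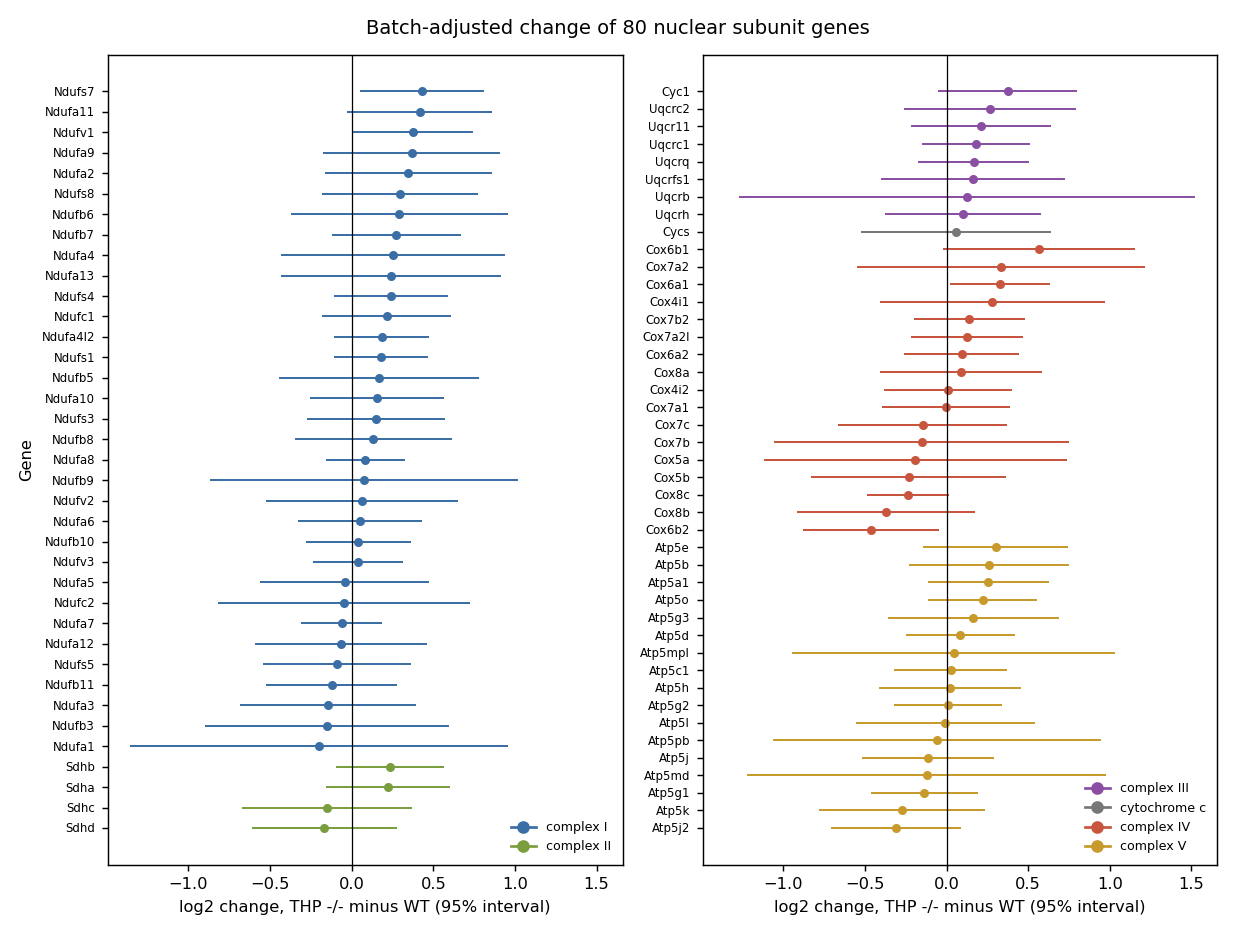
Batch-adjusted log2 change (THP -/- minus WT, horizontal axis) of each of the 80 nuclear subunit genes (vertical axis), coloured by complex, with points for the estimate and lines for the 95% interval from limma on 6 WT and 5 knockout arrays. Complex III lies wholly to the right of 0 and complexes IV and V straddle it; the intervals of nearly all genes include 0, those of Ndufs7, Ndufv1, Cox6a1 and Cox6b2 being the exceptions.

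The main feature of these genes was a level shared across complexes that set single arrays apart within each genotype. To show it, each gene's mean over the 11 arrays was subtracted, and the median of these deviations was taken over the members of a complex. Over all 80 members the WT arrays, replicates 1 to 6, read 0.20, 0.08, -0.08, -0.46, -0.10 and 0.01 on this log2 scale, and the knockout arrays, replicates 1 to 5, read -0.18, -0.03, 0.43, 0.37 and -0.08. Knockout replicates 3 and 4 stood above every other array, WT replicate 4 stood below every other array, and the other 8 arrays of both genotypes overlapped. The range was 0.67 within WT and 0.61 within knockout, and the group means were -0.06 ± 0.23 (SD, n = 6) and 0.10 ± 0.28 (SD, n = 5).

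Knockout replicate 3 or 4 was the highest of the 11 arrays for 57 of 80 members (71.3%), against 22.4% of all genes. WT replicate 4 or knockout replicate 1 was the lowest for 60 members (75%), against 21.2% of all genes. WT replicate 4 alone was lowest for 42 members and knockout replicate 3 alone was highest for 32. These 4 arrays were singled out after their values were seen, and the shares are descriptions with no test. The mean lay below the median of every array for 8889 of 22180 genes but for 5 of 80 members. The shares therefore also set brighter genes against dimmer ones, and an effect of brightness was not tested.

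**Figure D2:**
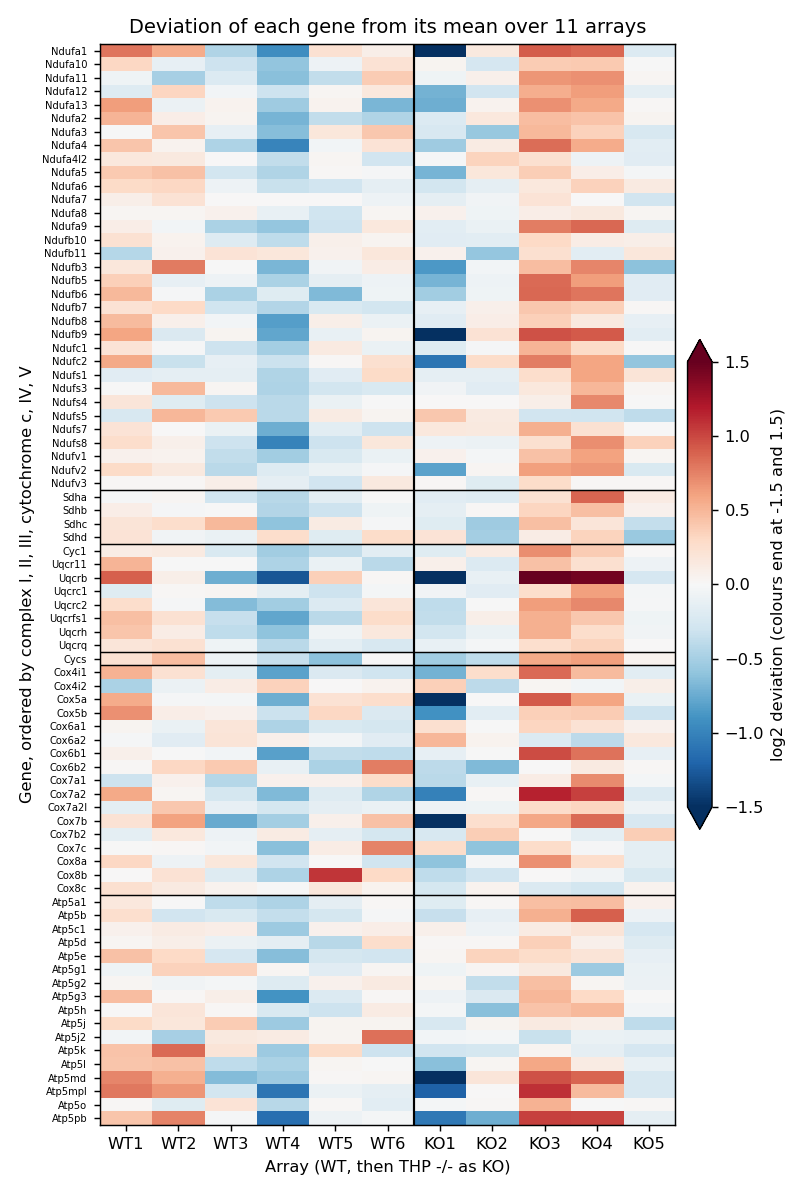
Deviation of each of the 80 genes (rows, by complex) from its own mean over 11 arrays (columns, WT1 to WT6 and KO1 to KO5 for the knockout), in log2 units, with colours ending at -1.5 and 1.5. Columns KO3 and KO4 are mostly red and WT4 mostly blue across complexes; KO1 is dark blue for a subset such as Ndufa1, Ndufb9, Uqcrb, Cox5a, Cox7b and Atp5md.

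The direction of the members' median rested on knockout replicate 3. Without knockout replicate 3 the median change of the 80 members was -0.01 with 36 positive, and without knockout replicate 4 it was 0.07 with 47 positive. Without knockout replicate 1 it was 0.24 with 63 positive, and without WT replicate 4 it was 0.04 with 47 positive. The median was 0.08 within batch 1 and 0.16 within batch 2. With quantile normalization it was 0.03, and complexes I to V had medians of 0.07, -0.03, 0.09, 0.03 and -0.04.

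Markers of tubule segments also varied between these arrays. The 6 markers of proximal tubule (Lrp2, Cubn, Slc34a1, Aqp1, Slc27a2 and Ass1) were all measured, with mean log2 signals of 9.31 to 9.71 in WT and 9.37 to 9.73 in knockout arrays. The 6 S3 markers averaged 7.65 to 8.88 in WT and 8.32 to 9.45 in knockout arrays, lowest in WT replicate 4 and highest in knockout replicate 3. Markers of the thick ascending limb, a segment also dense in mitochondria, averaged 5.26 to 6.05 in WT (6 of 6 measured, Umod left out) and 5.64 to 7.63 in knockout arrays, with the highest value in knockout replicate 4 and 6.22 in knockout replicate 3. The 8 markers of distal tubule and collecting duct averaged 4.56 to 5.41 in WT and 4.4 to 6.54 in knockout arrays, again highest in knockout replicate 4. Here knockout replicate 3 read 5.015 and WT replicate 4 read 5.20. The 7 markers of S1 and S2 averaged 5.60 to 6.90 in WT and 5.15 to 6.82 in knockout arrays. They were highest in WT replicate 4 and lowest in knockout replicate 2, with knockout replicates 3 and 4 at 6.12 and 6.82. The 3 measured thin limb markers averaged 5.77 to 6.98 in WT and 6.38 to 7.13 in knockout arrays. Endothelial (5 genes), leukocyte (4), fibroblast and pericyte (4) and podocyte (2) markers averaged between 3.64 and 5.0 in every array, and the 3 erythrocyte markers had no probe set with a single symbol.

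When the fit carried the difference between S3 and S1/S2 marker means as a covariate, the median change of the members was -0.05, and with the thick ascending limb marker mean it was -0.03. The S3 minus S1/S2 difference was highest in knockout replicate 2 (3.79). It read 3.33 and 2.26 in knockout replicates 3 and 4, and 0.75 to 3.23 in WT arrays. The thick ascending limb mean was highest in knockout replicate 4 (7.63). Both covariates were computed from the same arrays as the members, and each had its highest value in a knockout array. These fits therefore cannot separate the segment mixture from genotype. In such samples, fewer cells of a type and less RNA per cell cannot be told apart. The part of the segment mixture in the levels of knockout replicates 3 and 4 was not tested.

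**Figure D3:**
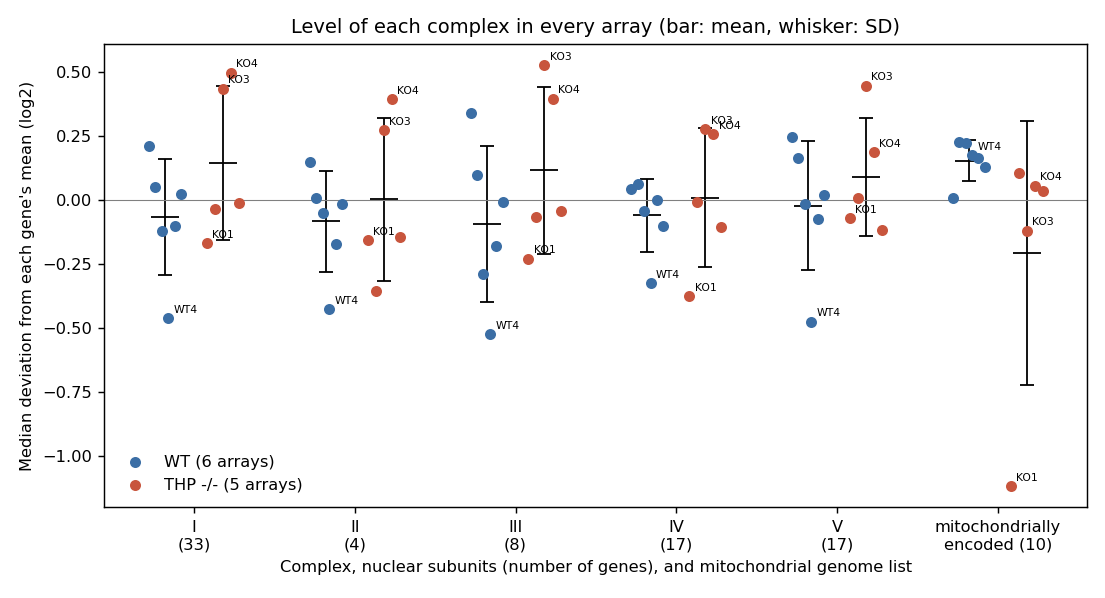
Median deviation from each gene's mean (log2, vertical axis) for the members of each complex and for the 10 subunits of the mitochondrial genome (horizontal axis, number of genes in brackets), one point per array, blue for 6 WT and red for 5 THP -/- arrays, bars for group means and whiskers for SD. In complexes I to V the arrays KO3 and KO4 lie high and WT4 low; in the last column KO1 lies at -1.12, below all other arrays.

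Complex I, which takes electrons from NADH, had 24 of 33 members with a positive change and a median of 0.15, with 0.10 within batch 1 and 0.16 within batch 2. Its per-array level ran from -0.46 to 0.21 in WT and from -0.17 to 0.50 in knockout arrays. Its 6 measured core subunits, which carry the flavin and most iron-sulphur clusters or line the quinone site (Ndufs1, Ndufs3, Ndufs7, Ndufs8, Ndufv1 and Ndufv2), were all positive, with a median of 0.24 and changes from 0.06 to 0.43. The 27 other members of complex I by symbol, supernumerary subunits together with Ndufa4 and Ndufa4l2, had a median of 0.08 with 18 positive. The division into core and other subunits was made with the values known and was not tested. Without knockout replicate 3 the core median was 0.17 with 5 of 6 positive, and the complex I median was 0.03 with 18 of 33 positive.

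Ndufs7, which holds the last iron-sulphur cluster before ubiquinone, read 7.25 at the lowest, 7.85 at the median and 8.19 at the highest WT array, and 8.14, 8.12, 8.51, 8.21 and 7.99 in knockout replicates 1 to 5. Knockout replicates 3 and 4 were above all WT arrays, while the other 3 lay inside the WT range. The batch-adjusted log2 change was 0.43 ± 0.17 (SE, limma adjusted p = 0.774), with 0.43 within each batch. Ndufv1, the flavoprotein that binds NADH, read 7.77 to 8.36 in WT (median 8.13) and 8.36, 8.26, 8.73, 8.90 and 8.32 in knockout replicates 1 to 5. Again only knockout replicates 3 and 4 exceeded the highest WT array. Its change was 0.37 ± 0.17 (SE, limma adjusted p = 0.800), 0.36 within batch 1 and 0.42 within batch 2.

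Supernumerary subunits of complex I covered changes from -0.20 (Ndufa1) to 0.42 (Ndufa11). Ndufa1, a small membrane subunit, ranged from 8.94 to 10.68 in WT and read 7.88, 10.02, 10.78, 10.74 and 9.67 in knockout replicates 1 to 5. Knockout replicate 1 was 1.06 below the next lowest array, and without it the change of Ndufa1 was 0.40. Ndufa4, named as a complex I subunit but found in complex IV, read 8.82 to 10.23 in WT (median 9.82) and 9.27, 9.93, 10.65, 10.36 and 9.65 in knockout arrays, a change of 0.25 ± 0.31 (SE). Its hypoxia-induced relative Ndufa4l2 read 3.29 to 3.82 in WT and 3.64, 4.0, 3.90, 3.59 and 3.49 in knockout arrays, a change of 0.18 ± 0.13 (SE). The mean of Ndufa4l2 lay below the median probe of every array, as did those of Cox4i2, Cox7b2, Cox7c and Cox8c. These 5 in particular were not shown to be above background, and signal over background was not measured for any member.

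Complex II, succinate dehydrogenase, is encoded wholly in the nucleus, and its members were split in sign, with 2 positive and 2 negative and a median of 0.04. The catalytic flavoprotein Sdha read 7.11 to 7.56 in WT (median 7.44) and 7.35, 7.33, 7.75, 8.40 and 7.65 in knockout replicates 1 to 5. Knockout replicates 3, 4 and 5 exceeded the highest WT array and the other 2 lay inside the WT range. The change of Sdha was 0.22 ± 0.17 (SE), with 0.12 within batch 1 and 0.51 within batch 2, which holds knockout replicate 4.

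For Sdhb, the iron-sulphur subunit, the WT arrays spanned 7.29 to 7.83 (median 7.69) and the knockout arrays read 7.59, 7.74, 8.05, 8.18 and 7.79. Its change was 0.23 ± 0.15 (SE), 0.20 within batch 1 and 0.33 within batch 2. The membrane anchors that bind ubiquinone pointed the other way. Sdhc spanned 4.51 to 5.60 in WT and read 4.93, 4.58, 5.56, 5.29 and 4.76 in knockout arrays, with a change of -0.15 ± 0.23 (SE). Sdhd spanned 7.37 to 7.83 in WT and read 7.76, 7.04, 7.67, 7.89 and 7.0 in knockout arrays, with a change of -0.17 ± 0.20 (SE). Knockout replicates 2 and 5 lay below all WT arrays for Sdhd. The limma adjusted p of the 4 subunits ran from 0.841 to 0.935.

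Complex III, which passes electrons from ubiquinol to cytochrome c, had a positive change in 8 of 8 members, from 0.10 (Uqcrh) to 0.38 (Cyc1), with a median of 0.17 and none at an unadjusted p under 0.05. The sign was the same within both batches for 5 of the 8. Without knockout replicate 3 the count was 5 of 8 and the median 0.09. With the pseudogene Uqcrh-ps1 counted in, an alternative chosen after seeing the data, the median was 0.17. Cyc1, the cytochrome c1 that hands electrons to cytochrome c, read 8.06 to 8.72 in WT (median 8.40) and 8.40, 8.71, 9.28, 8.97 and 8.59 in knockout arrays. Only knockout replicates 3 and 4 exceeded the WT range. The change of Cyc1 was 0.38 ± 0.19 (SE, limma adjusted p = 0.823).

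Uqcrc1, a core protein of the complex, read 7.64 to 7.98 in WT (median 7.87) and 7.90, 7.78, 8.22, 8.57 and 7.92 in knockout arrays, a change of 0.18 ± 0.15 (SE). Uqcrb covered the widest range of the members, from 7.18 to 9.36 in WT and at 6.5, 8.36, 10.01, 9.92 and 8.22 in knockout arrays. The lowest and the highest values of Uqcrb were thus both in the knockout. Cycs, the mobile cytochrome c, read 8.87 to 9.95 in WT (median 9.46) and 8.97, 9.11, 10.06, 10.11 and 9.54 in knockout arrays. Its change was 0.06 ± 0.26 (SE), and the differences were -0.04 within batch 1 and 0.33 within batch 2. Cycs has 5 probe sets of a single symbol, whose changes ran from -0.42 to 0.19, and a gene with many processed copies may not be measured alone.

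**Figure D4:**
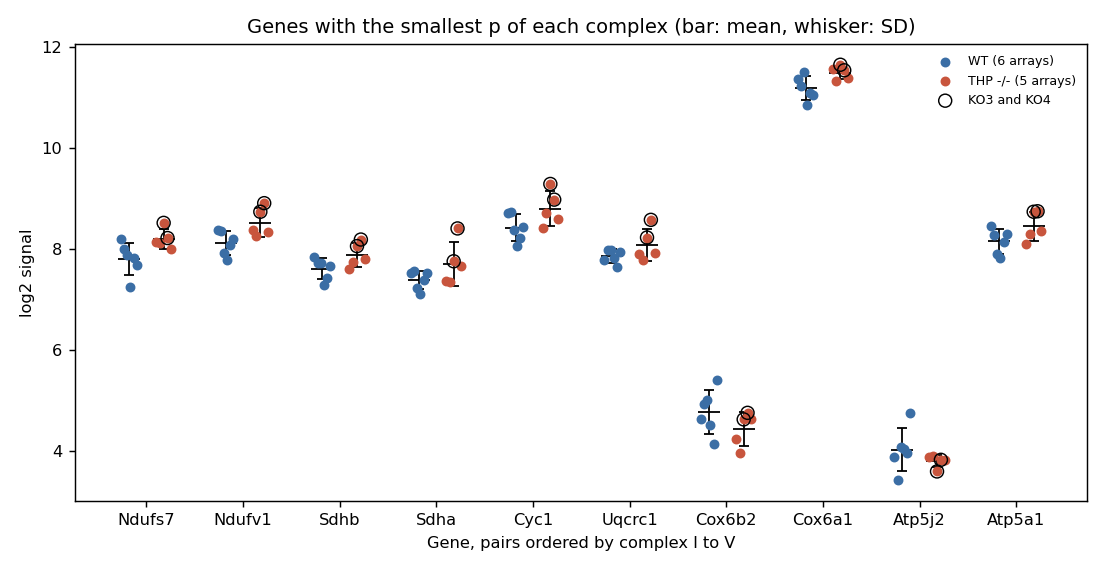
Log2 signal (vertical axis) of the 2 genes with the smallest p in each complex (horizontal axis), one point per array, blue for 6 WT and red for 5 THP -/- arrays, bars for means, whiskers for SD and circles around KO3 and KO4. WT and knockout points overlap for every gene, and in Ndufs7, Ndufv1, Sdha, Sdhb, Cyc1, Uqcrc1 and Atp5a1 the circled arrays lie at the top.

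Complex IV, cytochrome c oxidase, passes electrons to oxygen, and its members had a median change of 0.01 with 9 of 17 positive. With Ndufa4 and Ndufa4l2 counted in complex IV its median was 0.09, and that of complex I was 0.13. It was also 0.09 for the complex IV members with a mean above the median of all probes alone. Several of its subunits exist as a ubiquitous form and as forms of restricted tissues, such as heart, skeletal muscle, lung or testis. The 6 ubiquitous forms with such a partner (Cox4i1, Cox6a1, Cox6b1, Cox7a2, Cox7b and Cox8a) had a median of 0.30 with 5 positive, and the 7 restricted forms (Cox4i2, Cox6a2, Cox6b2, Cox7a1, Cox7b2, Cox8b and Cox8c) a median of -0.003 with 3 positive. Cox5a, Cox5b and Cox7c, which are in neither group, had negative changes (-0.19, -0.23 and -0.15). This grouping was made with the values known, and the difference between the forms was not tested. Without knockout replicate 3 the median of the ubiquitous forms was 0.02 with 3 of 6 positive. Their per-array level ran from -0.58 to 0.27 in WT and from -0.66 to 0.77 in knockout arrays, and that of the restricted forms from -0.26 to 0.14 over all 11 arrays. Of the 7 restricted forms 3 (Cox4i2, Cox7b2 and Cox8c) lay below the median of every array and the other 4 averaged 4.14 to 4.93. Neither the medians nor the ranges of the forms can therefore be compared.

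Cox6a1, the ubiquitous form of subunit 6a, read 10.85 to 11.50 in WT (median 11.16) and 11.56, 11.31, 11.64, 11.53 and 11.38 in knockout replicates 1 to 5. Knockout replicates 1, 3 and 4 exceeded the WT range and the other 2 lay inside it. The change of Cox6a1 was 0.33 ± 0.14 (SE, limma adjusted p = 0.786), 0.30 within batch 1 and 0.41 within batch 2. Its striated muscle counterpart Cox6a2 read 4.26 to 4.62 in WT and 4.93, 4.48, 4.22, 4.04 and 4.59 in knockout arrays, a change of 0.09 ± 0.16 (SE).

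Cox6b1, the form of subunit 6b found in most tissues, read 7.39 to 8.28 in WT (median 8.0) and 8.08, 8.20, 9.18, 9.02 and 8.08 in knockout arrays. Knockout replicates 3 and 4 stood above all other arrays, and the other 3 lay inside the WT range. Its change of 0.57 ± 0.26 (SE, limma adjusted p = 0.813) had the largest size of the 80 and was 0.34 without knockout replicate 3. The testis form Cox6b2 went the other way, reading 4.14 to 5.39 in WT (median 4.78) and 4.23, 3.95, 4.62, 4.75 and 4.63 in knockout arrays. Only knockout replicate 2 lay below the WT range. The change of Cox6b2 was -0.46 ± 0.19 (SE, limma adjusted p = 0.774), -0.38 within batch 1 and -0.70 within batch 2, where the single WT array read highest.

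Cox4i1, the ubiquitous subunit 4, read 8.95 to 10.27 in WT and 9.04, 10.01, 10.60, 10.22 and 9.59 in knockout arrays (change 0.28 ± 0.31, SE), and the oxygen-regulated form Cox4i2 read 3.13 to 3.95 in WT and 3.96, 3.22, 3.64, 3.57 and 3.70 in knockout arrays (0.01 ± 0.17). Cox7a2, the form of subunit 7a in liver and kidney, spanned 8.56 to 9.79 in WT and read 8.20, 9.23, 10.37, 10.24 and 9.01 in knockout arrays (0.34 ± 0.40). The striated muscle form Cox7a1 spanned 4.51 to 5.21 in WT and read 4.53, 4.82, 5.05, 5.64 and 4.90 in knockout arrays (-0.003 ± 0.17). Here again knockout replicates 3 and 4 were the highest arrays for Cox7a2, and knockout replicate 4 for Cox7a1. Cox7a2l, which helps complexes III and IV to join, read 6.39 to 7.06 in WT and 6.57, 6.58, 6.92, 6.97 and 6.57 in knockout arrays (0.13 ± 0.15).

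Cox7b read 8.28 to 9.64 in WT and 7.51, 9.29, 9.62, 9.89 and 8.80 in knockout arrays (-0.15 ± 0.41, SE), and its testis-restricted relative Cox7b2 read at most 2.41 in any array. Of subunit 8, Cox8a spanned 9.45 to 10.06 in WT and read 9.15, 9.73, 10.44, 10.01 and 9.60 in knockout arrays (0.09 ± 0.22). The muscle form Cox8b spanned 3.67 to 5.21 in WT and read 3.76, 3.85, 4.14, 4.08 and 3.91 in knockout arrays (-0.37 ± 0.25). The testis form Cox8c, among the dimmest members, spanned 2.78 to 3.02 in WT and read 2.52, 2.83, 2.57, 2.51 and 2.83 in knockout arrays (-0.24 ± 0.11). All knockout arrays of Cox8b lay inside the WT range, whereas knockout replicates 1, 3 and 4 of Cox8c lay below it. The remaining members, Cox5a, Cox5b and Cox7c, had changes of -0.19, -0.23 and -0.15. Probe sets disagreed for Cox5b, whose dimmer probe set gave -0.76 ± 0.25 (SE), and for Cox7b, whose dimmer probe set gave 0.55 ± 0.26. The sign also differed between probe sets for Ndufa8 (0.08 and -0.15), Atp5h (0.02 and -0.04) and Atp5d.

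Complex V, the ATP synthase, had a median change of 0.02 with 10 of 17 members positive, and -0.01 within batch 1 and 0.12 within batch 2. The 5 genes of its catalytic head (Atp5a1, Atp5b, Atp5c1, Atp5d and Atp5e) were positive by the probe set used, with a median of 0.26 and changes from 0.03 to 0.30. For Atp5d the second probe set gave -0.30 ± 0.17 (SE), against 0.09 ± 0.15 for the one used. The 4 genes of the peripheral stalk, which holds the head in place (Atp5pb, Atp5h, Atp5j and Atp5o), had a median of -0.02 with 2 positive. The 5 small accessory genes of the membrane part (Atp5j2, Atp5k, Atp5l, Atp5md and Atp5mpl) had a median of -0.12 with 1 positive. These groups were formed with the values known and differences between them were not tested. Without knockout replicate 3 the median of the head genes was 0.10 with 3 of 5 positive.

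Atp5a1, the alpha subunit of the head, read 7.82 to 8.44 in WT (median 8.21) and 8.10, 8.29, 8.73, 8.74 and 8.34 in knockout replicates 1 to 5. Knockout replicates 3 and 4 exceeded the WT range. The change was 0.26 ± 0.16 (SE, limma adjusted p = 0.843), with 0.26 within batch 1 and 0.25 within batch 2. Atp5j2, the membrane subunit f, read 3.42 to 4.74 in WT (median 4.0) and 3.88, 3.89, 3.59, 3.82 and 3.81 in knockout arrays, all inside the WT range. Its mean over all arrays was 3.92, within the span of the array medians (3.85 to 4.01), so Atp5j2 is a dim gene. Its change of -0.31 ± 0.18 (SE, limma adjusted p = 0.827) was -0.09 within batch 1 and -0.93 within batch 2, where the single WT array held the value of 4.74.

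The proton-carrying c-ring is built from 1 protein that 3 genes encode. Atp5g1 read 4.62 to 5.14 in WT and 4.73, 4.82, 4.94, 4.24 and 4.69 in knockout arrays, a change of -0.14 ± 0.15 (SE). Atp5g2 read 7.66 to 7.99 in WT and 7.88, 7.48, 8.30, 7.88 and 7.76 in knockout arrays, a change of 0.01 ± 0.15. Atp5g3 read 5.30 to 6.65 in WT and 6.12, 5.97, 6.69, 6.49 and 6.19 in knockout arrays, a change of 0.16 ± 0.24. The genotypes overlapped for all 3, and knockout replicate 3 was the highest array for Atp5g2 and Atp5g3.

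A subset of members was low in knockout replicate 1 alone. In 8 of 80 members (10%) this array lay more than 0.5 below every other array, against 0.352% of all genes. They were Atp5md (8.77, with the next lowest at 10.01), Ndufa1, Cox5a (6.54 against 7.49), Cox7b, Ndufb9 (7.01 against 7.74), Uqcrb, Cox5b and Ndufc2. With all arrays their changes ran from -0.23 to 0.13, and without knockout replicate 1 from 0.03 to 0.77. The array and the cut of 0.5 were chosen after the values were seen, and the counts have no test. The shares of 10% and 0.352% also set brighter genes against dimmer ones, and an effect of brightness was not tested.

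Subunits encoded by the mitochondrial genome had lower signal in knockout arrays, mainly through the same array, and none passed the test. Of 13 such genes 10 had a probe set with a single symbol (ND1 to ND6 with ND4L for complex I, CYTB for complex III, COX1 and COX3 for complex IV), and all 10 had a negative change, with a median of -0.43. At an unadjusted p under 0.05, 4 of 10 were lower (ND2, ND3, ND4L and ND6), against 2% of all genes, with limma adjusted p from 0.707 to 0.871 over the 10. Knockout replicate 1 was the lowest array for each of the 10, by 0.28 (COX1) to 1.63 (ND4) below the next. When this array was left out, ND2, ND3 and ND6 no longer met the unadjusted cut in limma, and ND4L still did. The 10 genes come from the same organelle genome and shared their lowest array. The 4 of 10 therefore do not count separate genes, and the share of all genes is not a like comparison. The per-array level of the list was -1.12 in knockout replicate 1, -0.12 to 0.11 in the other knockout arrays and 0.01 to 0.23 in WT arrays.

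Without knockout replicate 1 the median was -0.12 and 0 of 10 were positive, with ND4 at 0. ND4L read 11.19 to 11.78 in WT (median 11.52) and 9.77, 11.19, 10.89, 10.81 and 10.82 in knockout replicates 1 to 5. The groups met at 11.19 and did not otherwise overlap. Its change was -0.79 ± 0.24 (SE, limma adjusted p = 0.707), and -0.47 without knockout replicate 1. ND2 read 12.33 to 12.69 in WT (median 12.62) and 10.98, 12.47, 12.14, 12.31 and 12.31 in knockout arrays, a change of -0.58 ± 0.24 (SE), or -0.25 without knockout replicate 1. ND3 read 11.69 to 12.39 in WT (median 11.92) and 9.77, 11.91, 11.61, 11.55 and 11.32 in knockout arrays, a change of -0.78 ± 0.35 (SE), or -0.28 without it. ND6 read 9.01 to 10.09 in WT (median 9.79) and 8.28, 9.21, 9.14, 9.25 and 9.02 in knockout arrays, a change of -0.63 ± 0.25 (SE), or -0.39 without it. In batch 2 alone the list median was -0.06, against -0.59 in batch 1, which holds knockout replicate 1.

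**Figure D5:**
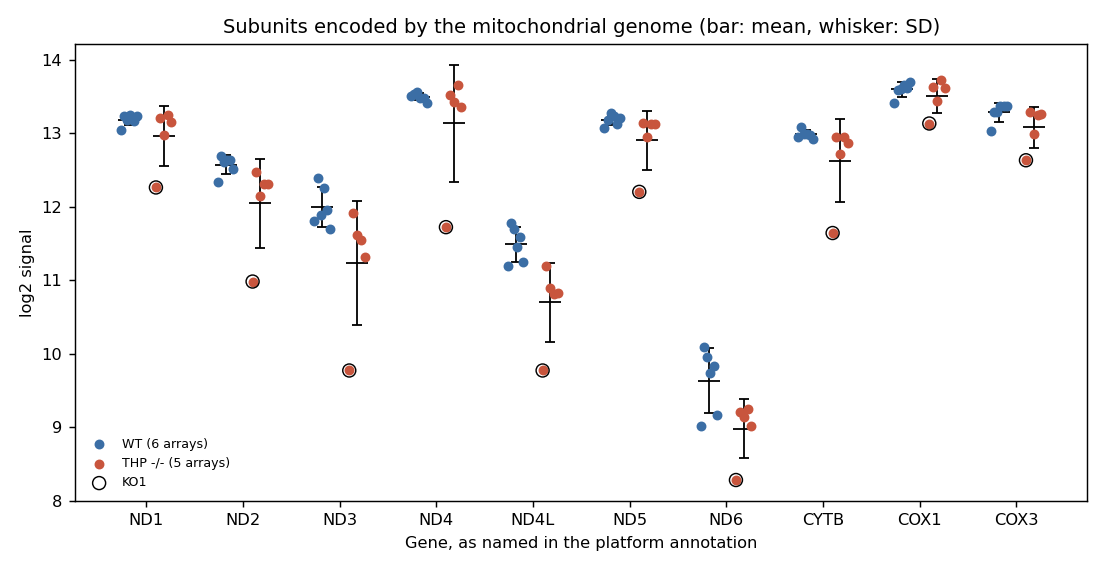
Log2 signal (vertical axis) of the 10 measured subunit genes of the mitochondrial genome (horizontal axis), one point per array, blue for 6 WT and red for 5 THP -/- arrays, bars for means, whiskers for SD and a circle around KO1. KO1 is the lowest point of every gene, by 1.63 for ND4 and 0.28 for COX1.

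Factors that assemble the complexes, such as Surf1 for complex IV and the Ndufaf genes for complex I, had 35 of 45 measured genes positive, with a median change of 0.11. Without knockout replicate 3 the count was 23 of 45. Lyrm7, which matures the iron-sulphur protein of complex III, was the only one of the 45 at an unadjusted p under 0.05, against 3.64% of all genes higher and 2% lower. It averaged 2.78 ± 0.26 (SD, n = 6) in WT arrays and 3.31 ± 0.34 (SD, n = 5) in knockout arrays, both dimmer than the median of any array. Regulators of mitochondrial biogenesis had 10 of 19 positive and a median of 0.05. Nrf1, the nuclear respiratory factor, had a change of 0.32 ± 0.13 (SE, limma adjusted p = 0.783), from 4.52 ± 0.19 (SD, n = 6) to 4.78 ± 0.25 (SD, n = 5).

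Enzymes of the citric acid cycle had 10 of 12 positive with a median of 0.24, and none at an unadjusted p under 0.05. Those with the smallest p were Idh3a (0.33 ± 0.16, SE), Idh3b (0.40 ± 0.22) and Suclg1 (0.23 ± 0.13). Proteins of the mitochondrial ribosome, which translates the mitochondrial subunits, had 57 of 71 positive and a median of 0.16. Higher at an unadjusted p under 0.05 were 5 of the 71 (Mrpl3, Mrpl34, Mrpl35, Mrpl38 and Mrps23), against 3.64% of all genes. Mrpl38 was the only gene of these lists without overlap between genotypes, against 0.433% of all genes wholly higher in knockout. It read 6.41 ± 0.21 (SD, n = 6) in WT and 6.90 ± 0.24 (SD, n = 5) in knockout, a change of 0.54 ± 0.14 (SE, limma adjusted p = 0.607). Cytosolic ribosomal proteins, listed as abundant genes outside the mitochondrion, had 43 of 62 positive and a median of 0.12. Among them Rpl14 (0.55 ± 0.24) and Rpl37a (0.47 ± 0.20) were higher and Rpl11 (-0.54 ± 0.20) was lower at an unadjusted p under 0.05, so 2 and 1 of the 62, against 3.64% and 2% of all genes. Knockout replicate 3 or 4 was the highest array for 83.3% of citric acid cycle, 54.9% of mitochondrial ribosome and 32.3% of cytosolic ribosome genes, beside 71.3% of the respiratory members. WT replicate 4 or knockout replicate 1 was the lowest array for 41.7%, 47.9% and 62.9% of these lists, beside 75% of the members. WT replicate 4 alone was lowest for 51.6% of cytosolic ribosome genes and 52.5% of the members.

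Promoters of the members were searched for motifs of factors known to act on respiratory genes. The search covered 250 bases before to 50 bases after the RefSeq start (GRCm38.p6), on both strands. Whether the motifs bear on the level that the members shared across arrays was not tested. A window was given for 65 of the 80 members and for 17492 coding genes. The NRF1 motif (GCGCA, any base, GCGC) was in 15 of 65 members (23.1%) and 7.17% of all coding genes, and the ETS motif CCGGAAG of GABPA in 17 (26.2%) and 12.9%. The YY1 motif AAGATGGCG was in 6 (9.23%) and 2.14%, and the motif TCAAGGTCA of oestrogen-related receptors in 2 (3.08%) and 0.377%. The ETS motif ends and the YY1 motif begins with AAG, so 1 stretch can hold both, and matches are descriptions, not binding sites. Members with the NRF1 motif had a median change of 0.05 and those without 0.09, and for the ETS motif these were 0.15 and 0.05. For the YY1 motif (6 members) they were 0.23 and 0.06, and for the oestrogen-related receptor motif (2 members) -0.003 and 0.08. The sequences of Cox6a1 and Cox6b2, the complex IV members at an unadjusted p under 0.05 in opposite directions, and of Ndufs7, the member with the smallest p, are shown from the base 250 before the start to the base before it, 5′ to 3′, with motif matches in capitals.
Cox6a1, chr5:115348959-115349208, minus strand: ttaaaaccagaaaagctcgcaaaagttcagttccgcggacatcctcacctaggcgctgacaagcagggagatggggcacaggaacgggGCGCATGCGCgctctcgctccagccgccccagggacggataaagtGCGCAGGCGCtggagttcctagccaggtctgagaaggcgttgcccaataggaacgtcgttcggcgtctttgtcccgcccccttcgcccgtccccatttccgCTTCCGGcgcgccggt
Cox6b2, chr7:4753095-4753344, minus strand: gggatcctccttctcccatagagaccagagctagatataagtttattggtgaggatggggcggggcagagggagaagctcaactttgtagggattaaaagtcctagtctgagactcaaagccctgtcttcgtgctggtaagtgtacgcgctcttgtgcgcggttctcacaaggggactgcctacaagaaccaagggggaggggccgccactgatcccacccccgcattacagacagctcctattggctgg
Ndufs7, chr10:80249199-80249448, plus strand: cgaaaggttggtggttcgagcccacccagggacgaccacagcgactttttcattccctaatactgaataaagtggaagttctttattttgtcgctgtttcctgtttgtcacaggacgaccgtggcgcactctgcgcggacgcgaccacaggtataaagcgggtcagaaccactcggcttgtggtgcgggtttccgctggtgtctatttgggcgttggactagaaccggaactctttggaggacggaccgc

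In the Cox6a1 sequence the capitals mark 2 NRF1 matches (GCGCATGCGC and GCGCAGGCGC) and, 16 bases before the start, 1 ETS match on the other strand (CTTCCGG). The Cox6b2 and Ndufs7 stretches hold none of the 4 motifs, and a YY1 match of Ndufs7 lies after the start.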

How the data were processed

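The deposited table holds log2 signals of 41345 probe sets in 11 arrays, for which the submitters' processing notes name Partek 6.6 and RMA (background correction, between-array normalization and probe set summary). RMA draws array distributions together, so a shift common to most genes would be reduced. Genome build, filters and any batch correction are not given in the sources used here, and no detection values were used. Array medians lay between 3.85 and 4.01. Precision is limited by how many arrays there are. Names came from the platform annotation (23521 probe sets with 1 symbol, 1814 with several, 16010 with none), and each gene was read from its brightest probe set by mean signal. limma 3.58.1 in R 4.3.3 (lmFit, eBayes) tested every probe set with genotype and batch as terms, two-sided, with Benjamini-Hochberg adjustment over all probe sets, a threshold of 0.05, no filter on dim probe sets and 8 residual degrees of freedom. The method was tested on simulated data. Lists are described by counts and medians. Other settings were the batch model, normalization, filter, prior, array weights, probe choice, marker covariates, the replicate number as a block and each array left out. Members, lists and roles were chosen with earlier results of these data known. Array values are given for members at an unadjusted p under 0.05 or without overlap, the 2 of smallest p in each complex, all of complex II, Cycs and isoform sets. Of other lists, members at an unadjusted p under 0.05 are named, otherwise the 3 with the smallest p. Any other gene was named after its values were seen. Promoters are from RefSeq tables; figures used matplotlib 3.10.9 in Python 3.11.15.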

Additional observations from a re-analysis of the deposited data

Results flagged for a closer look

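Within a genotype, 11 of 120 sets of array values held an array far from the others by Dixon's test at the 95% level, which chance alone flags in about 1 of 20 sets. Knockout replicate 1 accounted for 5 of them: the per-array level of mitochondrially encoded subunits (-1.12, the next knockout array at -0.12), ND2 (10.98, next 12.14), ND3 (9.77, next 11.32), ND4L (9.77, next 10.81) and ND6 (8.28, next 9.02). These come from the same organelle genome and the same array, so they are not separate findings. WT replicate 4 stood low in the level of cytosolic ribosomal proteins (-0.51, next -0.08), and was also the lowest array for 42 of the 80 respiratory members. Among the members themselves, Cox7a2l was high in WT replicate 2 (7.06, next 6.55) and Atp5j2 low in knockout replicate 3 (3.59, next 3.81). WT replicate 5 stood low for Idh3b (6.18, next 6.98) and Mrpl35 (5.06, next 5.32), and WT replicate 6 high for Rpl11 (4.61, next 3.73).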

How the results depend on the processing

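Under the other settings the number of probes past the threshold was 0 in the full fit, 3 in batch 1 alone, 4 at an adjusted p under 0.1, and 0 to 11 when an array was left out (11 without knockout replicate 5, 3 without WT replicate 6, 2 without knockout replicate 3 and 1 without WT replicate 1). Members higher at an unadjusted p under 0.05 numbered 3 in the full fit, 5 with no batch term, with batch as a random block or with quantile normalization, 1 in batch 1 alone or with a trended and robust prior, 0 with either marker covariate, and 0 to 6 when an array was left out (0 without knockout replicate 3 or 4, 6 without knockout replicate 5, 5 without WT replicate 1 and 1 without WT replicate 4, 5 or 6). Lower members numbered 1 in the full fit, 0 in batch 1 alone or with arrays centred on their medians, 2 with array weights or the mean over all probe sets, and 0 to 2 when an array was left out (0 without WT replicate 3 or 6 or knockout replicate 1, 2 without WT replicate 4). Same-numbered arrays did not deviate together over all probes (correlations from -0.18 to 0.01). Batch was not removed there and some same-numbered arrays lie in different batches, so this cannot exclude a pairing. With the replicate number as a block 0 members were higher and 0 probes passed. The median change of the 80 members was then -0.05, and those of complexes I to V were -0.04, -0.02, -0.01, -0.06 and -0.12. Of 285 list medians under other settings 284 moved by less than the spread between arrays; the exception was the median of biogenesis regulators, 0.05 in the full fit and -0.0563 with the thick ascending limb covariate. That spread is wide, and the median of complex V changed sign in 10 of 24 settings, that of complex II in 5 of 24, that of complex IV in 5 of 25, and those of complexes I and III in 2 and 1 of 25. Of 1097 values of named genes, 52 in 13 genes had another sign than in the full fit, and none passed the threshold. No mean over WT or knockout arrays is more precise than 6 or 5 arrays allow, and signal over background was not measured.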
